A study of Mus musculus with 9 samples.

Results

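The visual cycle genes of the retinal pigment epithelium (RPE) described here were 9 genes chosen by name, Rpe65, Rlbp1, Lrat, Rdh5, Rdh10, Rdh11, Rgr, Rrh and Stra6, out of 24421 gene symbols in each count table. All 9 were present in the tables and all 9 passed the filter on low counts. The 9 libraries came from male mice of 8 weeks whose eyes received 4 laser burns each, a model of choroidal neovascularization (CNV), in which vessels grow from the choroid through the RPE. The eyes were injected with 5 µg of Fc (the control protein), of ABTAA (an antibody that binds angiopoietin-2 and activates the receptor Tie2) or of VEGF Trap (a decoy receptor for vascular endothelial growth factor), and each group had 3 libraries. Laser capture was used to cut out CNV lesions with a rim of surrounding RPE and choroid, and 3′ ends of transcripts were counted. Every group carried the laser injury, no group was unlasered, and neither the strain nor the day of collection is given in the sources used here. Libraries cannot be linked to animals by their labels, and p-values therefore measure the spread between these libraries, which may be technical. The Fc tables name their columns as controls of a knockout, whereas the titles, which set the groups here, name them Fc.

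Light turns the cis form of retinal, the chromophore of the opsins, into the all-trans form, and the visual cycle restores it. Photoreceptors reduce all-trans-retinal to retinol, the RPE esterifies that retinol, converts the ester to cis-retinol, oxidizes it and returns cis-retinal to the photoreceptors. Mutations in RPE65, LRAT, RLBP1 and RDH5 cause inherited retinal disease in people. Rpe65 encodes the isomerohydrolase that makes cis-retinol and Lrat the acyltransferase that makes its ester substrate. Rlbp1 encodes the retinaldehyde binding protein CRALBP, and Rdh5, Rdh10 and Rdh11 encode retinol dehydrogenases. Rgr and Rrh encode opsins of the RPE, and Stra6 encodes the receptor that takes up retinol from its plasma carrier.

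The libraries held 6335805 to 14439835 counts, so that 3 counts, the limit that a count of 0 allows, correspond to 0.208 to 0.474 CPM, counts scaled to a common library size. The 9 genes together took 0.110% to 0.193% of a library's counts. Levels below are CPM scaled by the trimmed mean of M values (TMM), and levels are compared only within a gene. Intervals and limits cover counting error only where they come from counts of a single library. Across all 14054 genes tested, edgeR's quasi-likelihood test called 197 genes between ABTAA and Fc, 144 between VEGF Trap and Fc, and 0 between ABTAA and VEGF Trap at an adjusted p of 0.05. With library totals in place of TMM, the split of calls moved from 119 higher and 78 lower to 66 and 106 in ABTAA against Fc, and from 72 and 72 to 39 and 182 in VEGF Trap against Fc. For ABTAA against VEGF Trap, 711 genes had an unadjusted p under 0.05 and DESeq2 called 5.

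The RPE label was checked with 20 RPE genes outside the visual cycle, of which 19 were tested. Their summed level ran from 2705 to 3248 CPM in Fc, from 3003 to 3156 CPM in ABTAA and from 3468 to 3522 CPM in VEGF Trap, and all 3 VEGF Trap libraries lay above the other 6. Otx2, a transcription factor of the RPE, stood at 525 to 939 CPM, and the surface protein gene Bsg at 567 to 749 CPM. Best1, a chloride channel gene that defines the RPE, stood only at 0 to 1.24 CPM, and Cldn19, a claudin of its tight junctions, at 0 to 1.65 CPM. The list is not confined to genes of the RPE alone, and Trpm1 was also on a list of inner retina markers. Its sum is therefore not a measure of RPE content by itself, here or as a denominator below. In bulk tissue, fewer RPE cells and less RNA per cell cannot be told apart.

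Rlbp1, Rgr and Rdh10 are also expressed in Müller glia, so markers of neighbouring cells were read in the same libraries. The 9 Müller glia markers summed to 634 to 733 CPM in Fc, 637 to 808 CPM in ABTAA and 682 to 731 CPM in VEGF Trap, and most of it was Glul, a glutamine synthetase gene also active elsewhere, at 432 to 503 CPM, and Car14 at 94.4 to 243 CPM. The water channel gene Aqp4, another marker on that list, stood at 0 to 3.33 CPM, and every Aqp4 count was a multiple of 8. The 20 photoreceptor markers summed to 127 to 174 CPM in Fc, 115 to 184 CPM in ABTAA and 81.4 to 291 CPM in VEGF Trap. Melanocyte markers summed to 2130 to 2428 CPM in Fc, 2799 to 2872 CPM in ABTAA and 2234 to 4034 CPM in VEGF Trap. That list holds pigment genes that the RPE also expresses, Dct and Tyrp1 among them, so its sum does not separate melanocytes from RPE. Skeletal muscle markers summed to 99.5 to 152 CPM in Fc, 224 to 475 CPM in ABTAA and 219 to 390 CPM in VEGF Trap. Endothelial markers summed to 1935 to 2451 CPM in Fc, 2935 to 3080 CPM in ABTAA and 2256 to 2514 CPM in VEGF Trap. Macrophage markers summed to 1950 to 2108 CPM in Fc, 1600 to 1823 CPM in ABTAA and 1935 to 2104 CPM in VEGF Trap, and all 3 ABTAA libraries lay below the other 6. The part of these cell types in the values below was not tested.

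The 9 genes lie on 7 chromosomes, with positions given for mm10 (GRCm38) as whole genes of the GENCODE M21 annotation. Rpe65 (chr3:159599175-159625321, + strand), Lrat (chr3:82892579-82903973, - strand) and Rrh (chr3:129804408-129822587, - strand) share chromosome 3 and are not neighbours. Rlbp1 is at chr7:79374870-79387048 (- strand), Rdh5 at chr10:128913593-128922888 (- strand), Rdh10 at chr1:16105774-16133734 (+ strand) and Rdh11 at chr12:79174337-79192293 (- strand). Rgr is at chr14:37034909-37048964 (- strand) and Stra6 at chr9:58063788-58153996 (+ strand). Rdh5 shares 720 exonic bases on its own strand with Bloc1s1, but 0 in the last 200 bases of the gene. Still, 2 of its 5 coding transcripts end in sequence that matches Bloc1s1 over at least 100 of the last 200 bases, so its counts are uncertain. The other 8 genes shared no exonic base with another gene and had no such match.

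The promoters of Rpe65, which had the largest difference from Fc among the 9 genes, and of Rlbp1 and Rgr, the 2 with the most counts, are shown because the 3 were the only members whose windows held CATGTG, an E-box core bound by MITF, a pigment cell regulator. Each window runs from 250 bases before the transcription start to 50 bases after it (RefSeq, GRCm38.p6), at chr3:159598931-159599230 (+ strand) for Rpe65, chr7:79386978-79387277 (- strand) for Rlbp1 and chr14:37048965-37049264 (- strand) for Rgr. Capitals mark CATGTG or TAATCC, a core bound by OTX2 and CRX, on either strand.
Rpe65: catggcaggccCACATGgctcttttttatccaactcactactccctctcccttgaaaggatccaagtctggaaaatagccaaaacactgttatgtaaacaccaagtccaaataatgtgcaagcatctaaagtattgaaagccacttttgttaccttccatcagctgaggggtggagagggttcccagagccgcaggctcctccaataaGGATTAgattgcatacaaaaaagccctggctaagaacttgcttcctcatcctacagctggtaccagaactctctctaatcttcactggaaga
Rlbp1: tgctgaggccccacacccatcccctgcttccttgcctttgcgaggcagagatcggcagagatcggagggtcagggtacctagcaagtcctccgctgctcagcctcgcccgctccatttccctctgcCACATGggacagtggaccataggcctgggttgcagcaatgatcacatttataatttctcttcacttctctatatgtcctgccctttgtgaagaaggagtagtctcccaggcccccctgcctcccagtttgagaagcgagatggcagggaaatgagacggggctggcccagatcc
Rgr: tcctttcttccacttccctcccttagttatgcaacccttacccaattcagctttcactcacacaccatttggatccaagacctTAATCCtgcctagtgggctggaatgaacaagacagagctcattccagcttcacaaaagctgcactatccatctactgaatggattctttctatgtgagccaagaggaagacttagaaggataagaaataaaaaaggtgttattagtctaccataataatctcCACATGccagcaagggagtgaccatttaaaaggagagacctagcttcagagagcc
In the RefSeq table, 8 of the 9 genes had a window, 12 windows in all. CATGTG began at position -239 in Rpe65, -124 in Rlbp1 and -5 in Rgr, counted from the start site, and occurred in 14.2% of 32851 promoter windows of the same length. TAATCC was in 2 of the 12 windows, at -42 in Rpe65 and -167 in Rgr, against 7.06% of all windows. The E-box CACGTG and the nuclear receptor motif AGGTCA were in 1 window each, both of Rdh11, against 7.15% and 16.3% of all windows, and TATAAA was in the windows of Rlbp1 and Rrh, against 13.6%. No match overlapped another, both strands were read, and a match is a description of the letters only.

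Rpe65 had the highest mean in VEGF Trap and the lowest in Fc. Its level was 129.6, 173 and 202 CPM in the 3 Fc libraries, 177, 274 and 206 CPM in the ABTAA libraries and 184, 252 and 259 CPM in the VEGF Trap libraries. The means were 168 ± 36.3 (SD, n = 3), 219 ± 49.6 and 232 ± 41.8 CPM, and the highest Fc library lay above the lowest library of both treated groups. Against Fc, the log2 fold change was 0.38 ± 0.18 (SE) with ABTAA (95% interval -0.01 to 0.77, edgeR adjusted p = 0.307) and 0.46 ± 0.18 with VEGF Trap (0.07 to 0.85, adjusted p = 0.229). Neither passed. Between ABTAA and VEGF Trap it was -0.08 ± 0.18 (-0.47 to 0.31, adjusted p = 0.987).

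Lrat supplies the ester that RPE65 acts on, and it had far fewer counts than Rpe65. It stood at 9.44, 18.9 and 16.3 CPM in Fc, 9.29, 21.4 and 16.9 CPM in ABTAA and 9.53, 18.3 and 11.6 CPM in VEGF Trap. Each group had a library under 10 CPM and another above 18 CPM, and the groups overlapped. The log2 fold change from Fc was 0.09 ± 0.31 (SE, interval -0.58 to 0.75) with ABTAA and -0.17 ± 0.31 (-0.83 to 0.49) with VEGF Trap. These intervals hold changes in either direction.

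Rlbp1, whose protein carries cis-retinoids inside the cell, had 200.3, 317 and 356 CPM in Fc, 229.9, 386 and 311 CPM in ABTAA and 264, 319 and 350.2 CPM in VEGF Trap. The Fc libraries spanned nearly the whole range of the others. Its log2 fold change from Fc was 0.09 ± 0.20 (SE, interval -0.34 to 0.51) with ABTAA and 0.09 ± 0.20 (-0.33 to 0.52) with VEGF Trap, and -0.01 ± 0.20 between both agents. Every Rlbp1 count was even.

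Rdh5, the main cis-retinol dehydrogenase of the RPE, had 96.1, 143 and 176 CPM in Fc, 114, 162 and 141 CPM in ABTAA and 130.3, 161 and 156 CPM in VEGF Trap. All 6 treated libraries lay inside the range of the Fc libraries. The log2 fold change from Fc was 0.01 ± 0.18 (SE, interval -0.39 to 0.40) with ABTAA and 0.11 ± 0.18 (-0.28 to 0.50) with VEGF Trap. Rdh10, whose enzyme oxidizes retinol in the RPE and in retinoic acid synthesis, had 39.3, 65.5 and 64.5 CPM in Fc, 45.0, 64.4 and 58.0 CPM in ABTAA and 61.2, 62.5 and 76.0 CPM in VEGF Trap. Its VEGF Trap libraries included the highest of the 9, while the other 2 lay below the upper Fc libraries. The log2 fold change from Fc was -0.02 ± 0.19 (-0.42 to 0.38) with ABTAA and 0.23 ± 0.19 (-0.16 to 0.63) with VEGF Trap, and Rdh10 had the lowest adjusted p of the members between both agents (0.964, -0.25 ± 0.19). Rdh11, a dehydrogenase also found in photoreceptors, had 4.39, 6.45 and 3.82 CPM in Fc, 5.78, 6.15 and 6.26 CPM in ABTAA and 5.97, 4.04 and 5.41 CPM in VEGF Trap. The ABTAA libraries were close together, within 1 Fc library above and 2 below. The log2 fold change from Fc was 0.31 ± 0.28 (-0.30 to 0.92) with ABTAA and 0.07 ± 0.28 with VEGF Trap.

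Rgr, which encodes an opsin that acts in light-driven renewal of cis-retinal, had the most counts of the 9. It had 547, 804 and 769 CPM in Fc, 717, 912 and 669 CPM in ABTAA and 686, 748 and 821 CPM in VEGF Trap. Only the lowest Fc library stood outside the range of the treated libraries. The log2 fold change from Fc was 0.12 ± 0.15 (SE, interval -0.20 to 0.43) with ABTAA and 0.09 ± 0.15 (-0.22 to 0.40) with VEGF Trap, the narrowest intervals of the 9 genes. Rrh, which encodes peropsin, had the fewest counts, 7 to 30 per library. It had 0.654, 1.44 and 1.98 CPM in Fc, 1.24, 1.19 and 1.56 CPM in ABTAA and 1.49, 2.09 and 1.94 CPM in VEGF Trap. Its log2 fold change from Fc was -0.06 ± 0.53 (-1.18 to 1.07) with ABTAA and 0.42 ± 0.51 (-0.66 to 1.5) with VEGF Trap. At this depth a doubling lay inside both intervals, and a halving also lay inside that with ABTAA.

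Stra6, the retinol uptake receptor, had 64.3, 107 and 116 CPM in Fc, 88.4, 96.4 and 114 CPM in ABTAA and 86.6, 111 and 90.4 CPM in VEGF Trap. All treated libraries lay between the lowest and the highest Fc library. The log2 fold change from Fc was 0.05 ± 0.18 (SE, interval -0.34 to 0.45) with ABTAA and 0.01 ± 0.18 (-0.39 to 0.40) with VEGF Trap.

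**Figure D1:**
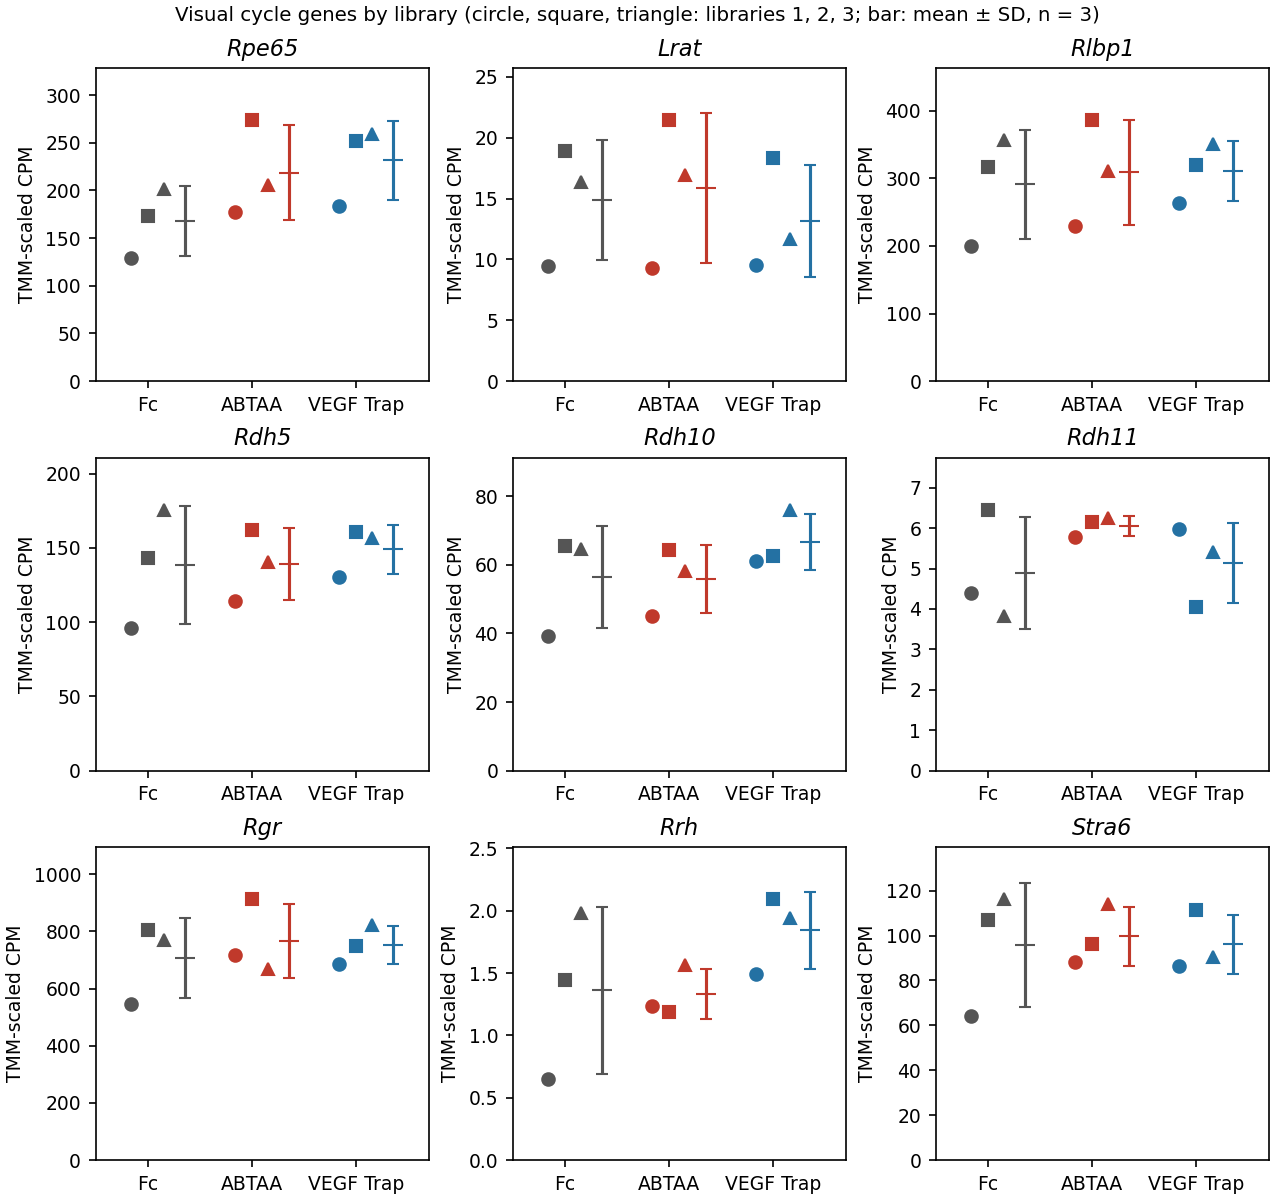
Level of each visual cycle gene (TMM-scaled CPM, vertical axis) in the 9 libraries, with points for libraries and a bar for each group's mean. In all 9 genes the groups overlap, and the lowest point is an Fc library in 8 of them, at 129.6 CPM for Rpe65.

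Of the 9 genes tested, 0 were called in ABTAA against Fc, where 1.4% of all genes tested were called, 0 in VEGF Trap against Fc, where 1.02% were called, and 0 in ABTAA against VEGF Trap, where 0% were called. An unadjusted p under 0.05 was reached by 0, 1 (Rpe65 with VEGF Trap) and 0 members, against 16.9%, 15.4% and 5.06% of all genes. The libraries of the compared groups did not overlap for 0 of the 9 genes in each comparison, while they did not overlap for 23%, 20.9% and 9.88% of all genes. Both comparisons with Fc share the Fc libraries. With ABTAA 7 of the 9 values were above 0 and with VEGF Trap 8 were, against 49.6% and 50.1% of all genes, and 4 were above 0 between both agents, against 49.5%. With library totals in place of TMM, 6 were above 0 in each comparison with Fc. The median log2 fold change of the 9 was 0.09 with ABTAA and 0.09 with VEGF Trap, and -0.01 between both agents, while the medians of all genes were between -0.01 and 0.01 in each.

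**Figure D2:**
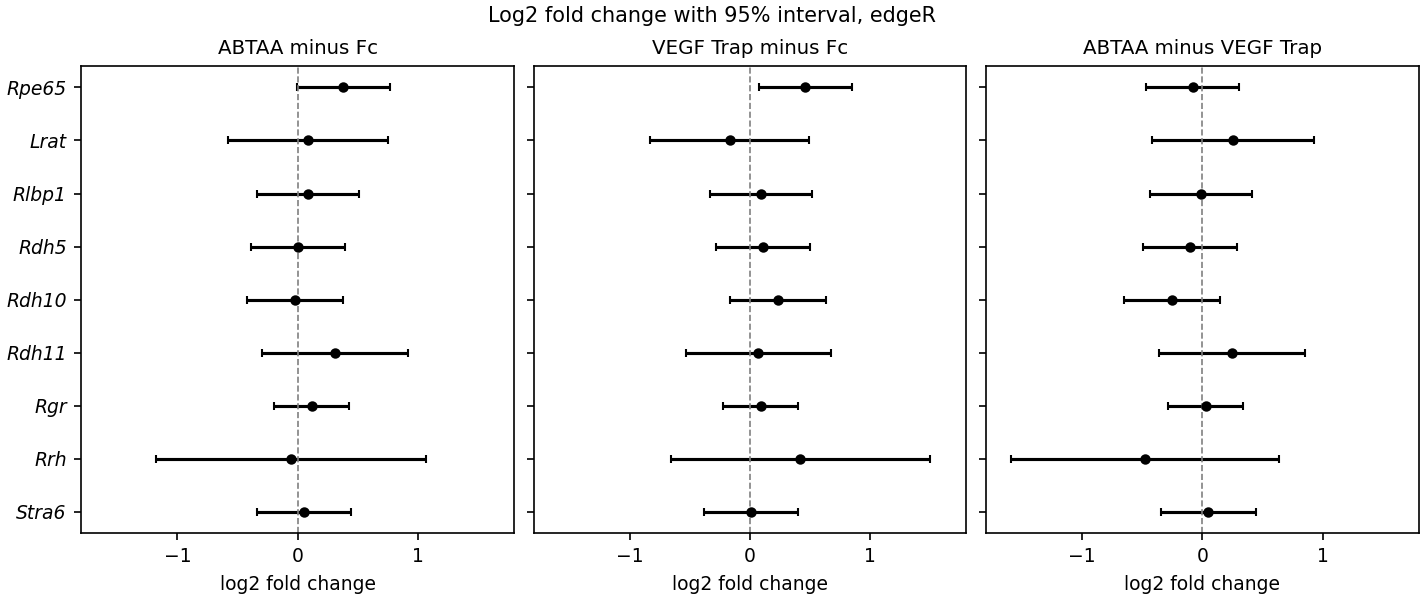
Log2 fold change (horizontal axis) of the 9 visual cycle genes in each of the 3 comparisons, with points for edgeR estimates and lines for 95% intervals. The interval of Rpe65 with VEGF Trap, 0.07 to 0.85, is the only one that does not include 0, and its adjusted p was 0.229.

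In several libraries most of the 9 genes lay on the same side of their own means. Relative to each gene's own mean over the 9 libraries, the mean of the 9 genes on the log2 scale was -0.56 in Fc 1, 0.12 in Fc 2 and 0.14 in Fc 3. It was -0.23, 0.23 and 0.09 in the ABTAA libraries and -0.10, 0.16 and 0.15 in the VEGF Trap libraries. Fc 1 was the lowest of the 9 libraries for 7 of the 9 genes, the exceptions being Lrat, lowest in ABTAA 1, and Rdh11, lowest in Fc 3, and all 9 genes lay below their own mean in it. ABTAA 2 was the highest library for 4 genes. The ratio of the highest to the lowest library ran from 1.67 for Rgr to 3.20 for Rrh, and from 1.34 to 2.30 with Fc 1 left out. Fc 1 also had the lowest sum of the RPE genes outside the visual cycle, 2705 CPM, while Fc 2 and Fc 3 had 3248 and 3220 CPM. Per 100 CPM of those RPE genes, the 9 genes had 40.3, 50.4 and 53.0 CPM in Fc, 46.2, 60.9 and 50.7 CPM in ABTAA and 41.2, 48.0 and 50.3 CPM in VEGF Trap, with the lowest value again in Fc 1 and the groups overlapping.

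**Figure D3:**
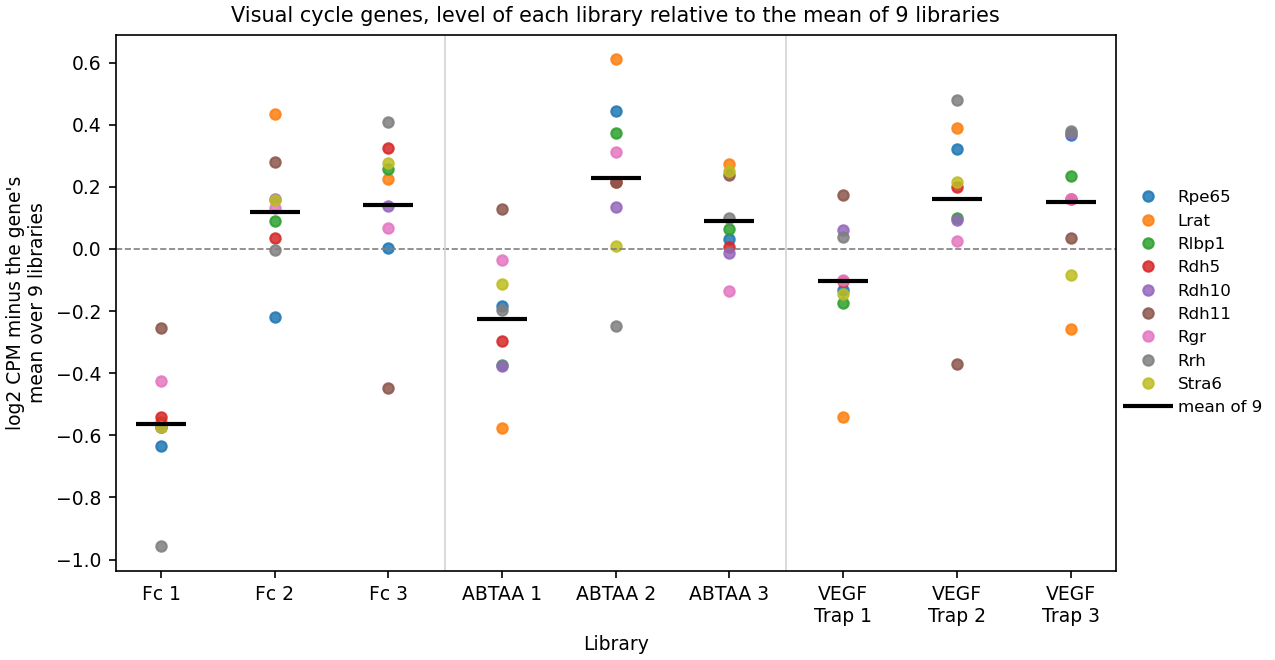
Log2 CPM of each visual cycle gene minus that gene's mean over the 9 libraries (vertical axis), by library, with a point per gene and a black bar for the mean of the 9. The bar sits at -0.56 in Fc 1 and between -0.23 and 0.23 in the other 8 libraries.

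The direction of most members against Fc depended on whether Fc 1 alone was left out. Without Fc 1, 2 of 9 were above 0 with ABTAA (Rpe65 at 0.22 and Rdh11 at 0.24), with a median of -0.15. With VEGF Trap, 3 of 9 were (Rpe65 at 0.30, Rdh10 at 0.03 and Rrh at 0.10), with a median of -0.07. That setting keeps ABTAA 1 and VEGF Trap 1, where the mean of the 9 genes was the lowest of their groups. With all 9 libraries and the replicate number as a block, 9 of 9 were above 0 with ABTAA (median 0.08). With VEGF Trap, 8 were (median 0.13). Without Fc 3, 9 of 9 were above 0 with ABTAA (median 0.21) and 7 with VEGF Trap (median 0.26), and without ABTAA 2, 4 were above 0 with ABTAA (median -0.03). No member was called with any library left out. Rpe65 stayed above 0 against Fc with each of the 9 libraries left out in turn, from 0.19 without ABTAA 2 to 0.53 without Fc 3 with ABTAA, and from 0.30 without Fc 1 to 0.61 without VEGF Trap 1 with VEGF Trap. Without the filter on low counts, Rpe65 was called in VEGF Trap against Fc (edgeR adjusted p = 0.0363), and under the other settings it was not.

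**Figure D4:**
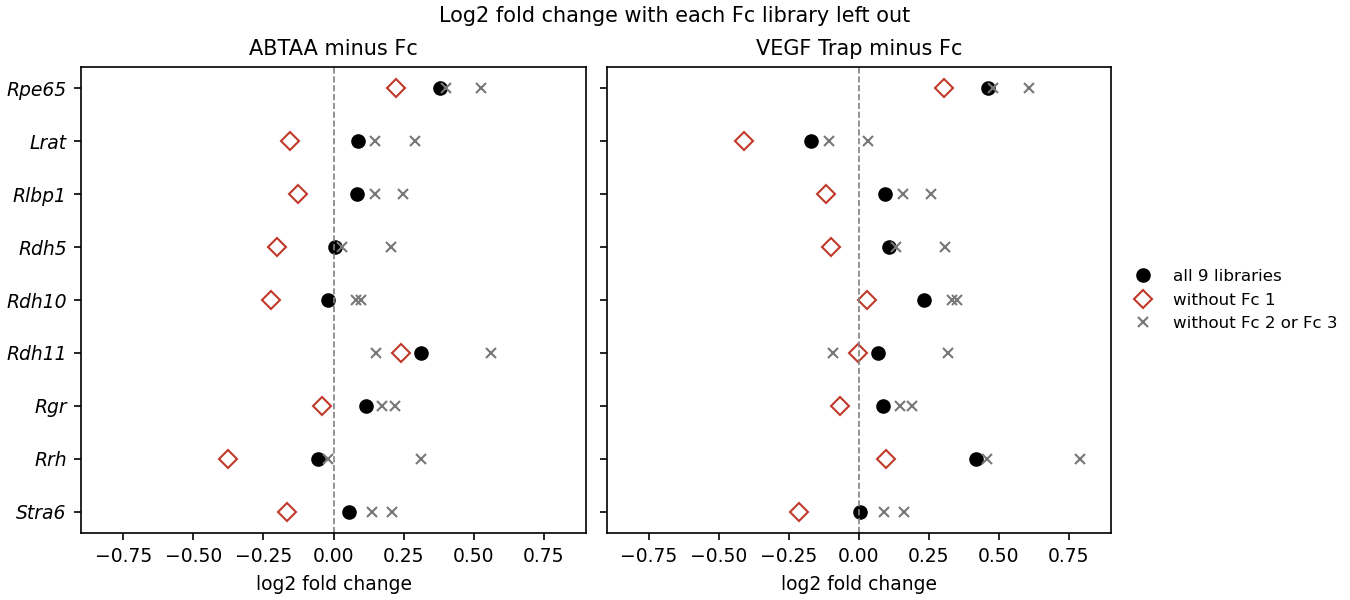
Log2 fold change from Fc of each visual cycle gene with all libraries and with each Fc library left out, for ABTAA and for VEGF Trap. Without Fc 1 the values of 7 genes with ABTAA and 6 with VEGF Trap lie below 0, while Rpe65 stays above 0 in each setting shown.

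Because the 9 genes shared shifts between libraries, each gene's share of their summed counts was read as well, a comparison chosen after the values were seen. Rpe65 made up 11.9%, 10.6% and 11.8% of these counts in Fc, 12.8%, 14.2% and 13.5% in ABTAA and 12.8%, 15.0% and 14.6% in VEGF Trap. All 6 treated libraries lay above all 3 Fc libraries. The means were 11.4% ± 0.747 (SD, n = 3), 13.5% ± 0.733 and 14.2% ± 1.15, a difference from Fc of 2.07 percentage points with ABTAA and 2.74 with VEGF Trap. An exact two-sided permutation test gave p = 0.1 for both, the smallest that 3 libraries against 3 allow, and p = 0.4 between both agents. Full separation fixes that p of 0.1, so the test adds nothing to the separation. It also makes no allowance for picking Rpe65 among the 9 shares. Among all genes, the count per count of the 9 genes did not overlap for 9.53% of genes with ABTAA (1.88% higher) and for 11.0% with VEGF Trap (1.32% higher). The 9 genes took 0.110% of the counts in Fc 1, against 0.167% and 0.181% in Fc 2 and Fc 3. A gene without that shift has a raised ratio in Fc 1, whereas the shift largely cancels for a member. These percentages are therefore no like-for-like background for Rpe65, and how rare its separation is was not tested. The shares of the other 8 members overlapped between Fc and both treated groups. Between both agents the share of Rrh alone did not overlap, lower with ABTAA, against 5.22% of all genes. In the edgeR model scaled to the other 8 genes, Rpe65 was at 0.27 ± 0.27 (SE, interval -0.25 to 0.80, adjusted p = 0.932) with ABTAA and 0.36 ± 0.27 (-0.17 to 0.88, adjusted p = 0.923) with VEGF Trap. That scaling put the median of all genes at -0.12 and -0.13, so the values relative to all genes were higher by those amounts, and neither passed.

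The ratios of Rpe65 to single members, also chosen after the values were seen and with no test, are given as a description. Rpe65 counts per Rlbp1 count were 0.647, 0.545 and 0.567 in Fc, 0.770, 0.709 and 0.661 in ABTAA and 0.696, 0.789 and 0.741 in VEGF Trap, with no overlap between Fc and either treated group, as for 4.8% of all genes with ABTAA and 6.81% with VEGF Trap when set against Rlbp1. Rpe65 counts per Rdh5 count were 1.35, 1.21 and 1.15 in Fc, 1.55, 1.69 and 1.46 in ABTAA and 1.41, 1.57 and 1.66 in VEGF Trap, again without overlap, as for 5.39% and 7.22% of all genes when set against Rdh5. Rlbp1 and Rdh5 were themselves lowest in Fc 1, so the percentages of all genes carry the same limit as those for the share. The ratios to the other 6 members overlapped with Fc in at least 1 treated group. Per 100 CPM of the RPE genes outside the visual cycle, Rpe65 had 4.79, 5.32 and 6.27 CPM in Fc, 5.89, 8.67 and 6.84 CPM in ABTAA and 5.29, 7.20 and 7.36 CPM in VEGF Trap, and the groups overlapped.

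**Figure D5:**
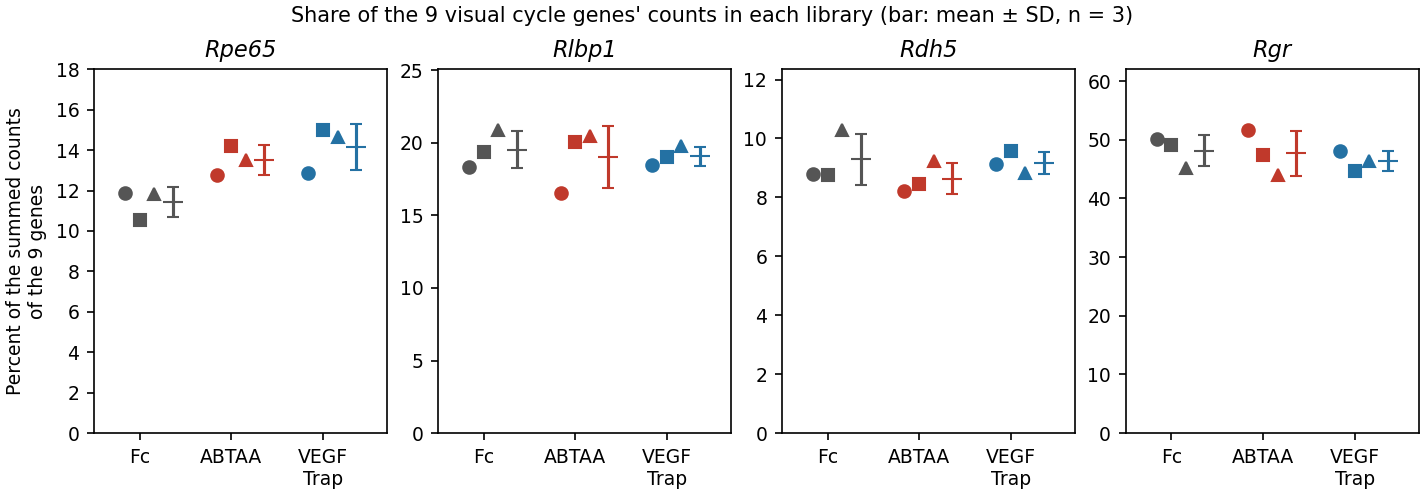
Share of the summed counts of the 9 visual cycle genes (percent, vertical axis) taken by Rpe65, Rlbp1, Rdh5 and Rgr in the 9 libraries, with points for libraries and bars for group means. For Rpe65 the Fc libraries lie between 10.6% and 11.9% and the treated libraries between 12.8% and 15.0%.

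The 42 other genes of retinoid handling gave 1 call. They comprised genes of the photoreceptor side of the cycle, retinol transport, retinol conversion, carotenoid cleavage, retinoic acid turnover and retinoic acid receptors, and 34 were tested. In ABTAA against Fc, 1 rose and 0 fell, where 1.4% of all genes were called (median log2 fold change -0.11), and 7 had an unadjusted p under 0.05, against 16.9% of all genes. In VEGF Trap against Fc edgeR called 0, against 1.02% of all genes (median 0.02), 8 had an unadjusted p under 0.05, against 15.4%, and DESeq2 called 1. Between both agents edgeR and DESeq2 called 0 (median 0.00), and 4 had an unadjusted p under 0.05, against 5.06% of all genes. The gene that rose was Rara, which encodes retinoic acid receptor alpha. It stood at 45.1 to 62.8 CPM in Fc, 77.3 to 116 CPM in ABTAA and 66.6 to 86.5 CPM in VEGF Trap, without overlap between Fc and either treated group. Its log2 fold change from Fc was 0.80 ± 0.17 (SE, edgeR adjusted p = 0.037) with ABTAA and 0.42 ± 0.17 (adjusted p = 0.232) with VEGF Trap, and the difference between both agents, 0.38 ± 0.17, did not pass (adjusted p = 0.956). The call with ABTAA was lost with any Fc library left out and without ABTAA 2 or ABTAA 3 (edgeR adjusted p from 0.0671 to 0.175), and every Rara count was a multiple of 4. Calls over all genes fell in the same runs, from 197 to 47, 13 and 35 without Fc 1, Fc 2 and Fc 3. They fell to 0 without ABTAA 2 and to 145 without ABTAA 3.

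By role, the members of the retinoic acid receptor list with the next smallest p-values included Rxrb, a partner receptor, at 162 ± 26 (SD, n = 3) CPM in Fc, 221 ± 18.5 in ABTAA and 212 ± 31.6 in VEGF Trap, with an edgeR adjusted p of 0.113 with ABTAA and 0.183 with VEGF Trap. Rxra of the same list went the other way, at 122 ± 10.7 CPM in Fc, 95.8 ± 7.36 in ABTAA and 105 ± 5.3 in VEGF Trap. Its edgeR adjusted p was 0.131 with ABTAA and 0.393 with VEGF Trap. Of the 6 receptors, 3 were above 0 with ABTAA and 5 with VEGF Trap. Slc27a4, a fatty acid transporter of the retinol transport list, had 30.4 ± 2.35 CPM in Fc, 40.3 ± 3.40 in ABTAA and 39.3 ± 1.32 in VEGF Trap (adjusted p of 0.123 and 0.167). Cyp26b1, which breaks down retinoic acid, had 179 ± 41.2 CPM in Fc and 117 ± 31.2 in VEGF Trap (log2 fold change -0.61, adjusted p = 0.14). Between both agents, the smallest p-values were those of Aldh1a3 and Aldh1a1, which make retinoic acid. Aldh1a3 had 19.3 ± 3.10 CPM in ABTAA and 12.2 ± 2.05 in VEGF Trap, and Aldh1a1 had 21.6 ± 1.04 and 15.5 ± 3.53 CPM, with edgeR adjusted p of 0.924 and 0.956. On the photoreceptor side, Rdh8, a reductase of the outer segment, was at 0 counts in all 9 libraries, which allows up to 0.208 to 0.474 CPM.

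Of the 19 tested RPE genes outside the visual cycle, 1 rose and 1 fell with ABTAA, where 1.4% of all genes were called, and 0 were called with VEGF Trap, where 1.02% were. At an unadjusted p under 0.05 there were 4 and 6 of the 19, against 16.9% and 15.4% of all genes, and the difference between both agents passed for none. Serpinf1, which encodes the antiangiogenic factor PEDF, rose from 208 ± 9.30 (SD, n = 3) CPM in Fc to 297 ± 11.4 CPM with ABTAA (log2 fold change 0.52 ± 0.11 SE, edgeR adjusted p = 0.037). With VEGF Trap it stood at 285 ± 34.3 CPM (0.45 ± 0.11, adjusted p = 0.0577). Krt18, an epithelial keratin gene, fell from 398 ± 65.2 CPM in Fc to 243 ± 33.5 CPM with ABTAA (-0.71 ± 0.14, adjusted p = 0.0342) and stood at 310.5 ± 47.3 CPM with VEGF Trap (-0.36 ± 0.14, adjusted p = 0.238). Sox9, a transcription factor gene of the RPE, had the smallest p of the list with VEGF Trap and lay just outside the threshold, at 315 ± 12.7 (SD, n = 3) CPM in Fc, 439 ± 32.5 CPM with VEGF Trap (0.48 ± 0.11 SE, edgeR adjusted p = 0.0504) and 383 ± 45.2 CPM with ABTAA (0.28 ± 0.11, adjusted p = 0.202). The call of Serpinf1 was lost with any Fc or ABTAA library left out (adjusted p from 0.0625 to 0.171) and with library totals (0.0536). That of Krt18 was lost without Fc 1, Fc 2, ABTAA 1 or ABTAA 2 (adjusted p from 0.0604 to 0.171). With an Fc or ABTAA library left out, calls over all genes fell as well, from 197 to between 0 and 145. The median log2 fold change of the 19 tested RPE genes was 0.07 with ABTAA and 0.26 with VEGF Trap, beside medians of 0.09 and 0.09 for the 9 visual cycle genes.

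The genes whose profile over the 9 libraries lay nearest to that of Rpe65 were sought among 8473 genes with a mean of at least 10 CPM. The measure was the root mean square difference of log2 CPM, each gene centred on its own mean, so that 0 is an identical profile. Slco1a4, an organic anion transporter gene that was also on the list of RPE genes, was nearest at 0.113, among genes that are no members, followed by Tmem229b at 0.120, Sh3gl1 at 0.123, Pigt at 0.126 and Sv2b at 0.136. Among the other visual cycle genes the nearest was Rlbp1 at 0.175 and the farthest Rdh11 at 0.404. Members aside, nearest to the mean profile of the 9 genes were Mphosph9 at 0.0889, Col8a1 at 0.101, Atp13a2 at 0.101, Lrp8 at 0.107 and Dmpk at 0.108, while the members themselves, which make up that mean, lay from 0.0789 for Rdh5 to 0.331 for Rdh11. The points share the same 9 libraries, and the ranking is a description.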

How the data were processed

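The authors counted reads per gene symbol in each of the 9 libraries (QuantSeq 3′ kit, per the labels' protocols) and deposited whole-number counts that are not normalized. Per the submitters' processing notes, Bowtie2, edgeR and the mm10 build were used. No version, annotation, counting tool, strand setting or rule for reads with several matches is given in the sources used here. Of 14167 genes counted in every library, 2058 had counts with a common divisor above 1, 1 of the 9 genes (Rlbp1) among them. Same-group libraries differed by 8.51 to 20.4 chi-square units per degree of freedom, so none was a duplicate.

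Counts were filtered (filterByExpr), TMM-scaled and tested by quasi-likelihood in edgeR 4.0.16 under R 4.3.3, in 1 model of 9 libraries with 6 residual degrees of freedom, adjusted by Benjamini-Hochberg over 14054 genes at 0.05. The biological coefficient of variation was 17.9%. Alternatives were DESeq2 1.42.0, limma 3.58.1 (voom), other scalings and filters, a replicate block and each library left out. The model was tested on simulated data. BLAST+ 2.17.0 compared transcript ends at 95% identity. The members and lists were chosen with earlier results of these data known. Text names the 9 members, other retinoid genes called or with the 3 smallest p, the 2 strongest and any absent markers of lists set beside a result, and the 5 nearest profiles. Best1, Cldn19, Aqp4, Sox9 and Rxra were named after their values were seen.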

Additional observations from a re-analysis of the deposited data

How the results depend on the processing

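No visual cycle gene was called in any comparison under any alternative, except Rpe65 in VEGF Trap against Fc without the filter on low counts (1 called). Rpe65 kept its direction against Fc in every alternative. Counts over all genes moved more. For ABTAA against Fc, 197 calls became 684 without a filter, 750 with DESeq2, 301 when the third group was left out, 411 with limma-voom and 334 with the replicate block, and 0 (without ABTAA 2) to 373 (without VEGF Trap 1) with a library left out. For VEGF Trap against Fc, 144 became 651, 242, 616 and 300 with DESeq2, limma-voom, no filter and the replicate block, 249 with counts divided by their common divisor, 221 with library totals, and 7 (without Fc 2) to 144 with a library left out. Between both agents, 0 became 5 with DESeq2, 30 without a filter and 1 with the block. Calls among the other retinoid genes in ABTAA against Fc were 3 with DESeq2, 2 without a filter and 0 to 1 with a library left out, and in VEGF Trap against Fc 1 with DESeq2 and 1 without a filter. The cause was not tested. Replicate numbers were not treated as pairing the libraries, since no label says what they share. Same-number correlations of residuals ran from 0.013 to 0.112, all above 0, and different-number ones from -0.092 to 0.037. ABTAA 2 was nearer to Fc 3 than to Fc 2. The residuals were centred within groups, so these values are not independent. Whether replicate numbers mark a shared batch was not tested. The block changed no call of a visual cycle gene, but it lowered the edgeR adjusted p of Rpe65. With ABTAA that p went from 0.307 to 0.0996, and with VEGF Trap from 0.229 to 0.0596, the lowest of the members.

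Signs of small values turned. In ABTAA against Fc, scaling to the other 8 genes, added after the data were seen, gave -0.0452 for Lrat, -0.12 for Rdh5, -0.0206 for Rgr, -0.0457 for Rlbp1 and -0.0282 for Stra6. The block gave 2e-04 for Rdh10 and 0.0359 for Rrh, library totals gave -0.045 for Rdh5, and limma-voom gave 0.0026 for Rrh. In VEGF Trap against Fc, that scaling gave -0.0764 for Rdh11, -0.0203 for Rdh5, -0.11 for Rgr, -0.0436 for Rlbp1 and -0.12 for Stra6, library totals gave -0.013 for Rdh11 and -0.0778 for Stra6, and limma-voom gave -0.0063 for Rdh11. Between both agents, library totals gave 0.0261 for Rlbp1. With a library left out, ABTAA against Fc ran from -0.21 to 0.36 for Lrat, -0.20 to 0.21 for Rdh5, -0.22 to 0.11 for Rdh10, -0.0402 to 0.22 for Rgr, -0.13 to 0.26 for Rlbp1, -0.38 to 0.31 for Rrh and -0.17 to 0.21 for Stra6, VEGF Trap against Fc from -0.50 to 0.0344 for Lrat, -0.0982 to 0.31 for Rdh5, -0.0928 to 0.32 for Rdh11, -0.067 to 0.19 for Rgr, -0.12 to 0.26 for Rlbp1 and -0.21 to 0.16 for Stra6, and ABTAA against VEGF Trap from -0.041 to 0.59 for Lrat, -0.23 to 0.022 for Rdh5, -0.12 to 0.12 for Rgr, -0.20 to 0.16 for Rlbp1, -0.28 to 0.0504 for Rpe65, -0.0577 to 0.17 for Stra6 and -0.0375 to 0.13 for Serpinf1. Rrh, at 7 to 30 counts, is limited by depth.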

Other observations

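In each of the 3 groups the library numbered 1 was the lowest of its group for 6 of the 9 visual cycle genes (Rpe65, Rlbp1, Lrat, Rdh5, Rdh10 and Stra6), while the same held for 836 of 14054 genes tested (5.95%). The 9 genes shared shifts between libraries, so these 6 genes are not independent of each other. The pattern was not among the planned comparisons, and its difference from all genes was not tested. The labels do not say whether a shared number marks a shared day or batch.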
